A study of Mus musculus with 6 samples.

Results

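Nucleolar ribosome biogenesis genes were described in mouse 2-cell embryos that developed from control or delipidated zygotes. The list holds 36 genes chosen by name for their known function, and all 36 were among the 16020 genes tested of 48967 genes listed. They fall into 6 role groups, which are rDNA transcription (6 genes), box C/D snoRNP (3), box H/ACA snoRNP (5), nucleolin and nucleoplasmins (4), small subunit (9) and large subunit (9).

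Ribosomes are assembled in the nucleolus, where RNA polymerase I transcribes the rDNA repeats into a long precursor RNA. Small nucleolar RNPs (snoRNPs) guide the modification of this precursor, box C/D particles by 2′-O-methylation and box H/ACA particles by pseudouridylation, while processing factors cleave it and join it with ribosomal proteins into the small and the large subunit. In the mouse zygote the nucleolus is replaced by compact nucleolus precursor bodies, and rRNA transcription resumes during the 2-cell stage as the embryo's genome is activated.

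All embryos were wild-type embryos at day 2, from F1 (C57Bl/10 X CBA/H) females mated with F1 males. They were kept in vitro from 0.5 to 2.0 dpc (days post coitum) in KSOM medium free of fatty acids. The donor females were hormonally stimulated and 2 to 5 months old. Delipidated zygotes were centrifuged with cytochalasin B in a hyperosmotic sucrose medium, and their lipid droplets were aspirated through a zona pellucida opened by laser. The sources used here do not state that control zygotes were handled in the same way without aspiration, so lipid removal and handling cannot be told apart. Each group had 3 libraries, each from a pool of 3 embryos, and the embryos of the females had been pooled before allocation, so p-values measure the spread between pools of embryos and not between animals. RNA was sequenced as total RNA after depletion of rRNA, so the products of the rDNA were not analysed here. In bulk pools, fewer cells of a type and less RNA per cell cannot be told apart.

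Counts assigned to genes were 12164963, 16165958 and 12980787 in control libraries 1, 2 and 3, and 20059460, 16332103 and 14683741 in delipidated libraries 1, 2 and 3. Genes with a count numbered 22855, 22437 and 20582 in control and 17091, 19408 and 20158 in delipidated libraries, fewer in every delipidated library than in every control, and fewest in the deepest library, delipidated 1. The mean Spearman correlation across genes with the own group and with the other group was 0.914 and 0.914 for control 1, 0.911 and 0.908 for control 2, and 0.912 and 0.897 for control 3. It was 0.895 and 0.896 for delipidated 1, 0.906 and 0.914 for delipidated 2, and 0.896 and 0.909 for delipidated 3, so control 2 and 3 were closer to their own group and the delipidated libraries were not. The 2-cell label was checked with 26 genes of embryonic genome activation. All 24 found in the files had counts in both groups, though not in every library, as Duxf3 had none in delipidated 1. Zscan4d, a marker of the 2-cell stage, was counted at 39.3, 13.8 and 43.9 CPM (counts scaled to a common library size) in the control libraries and at 39.1, 27.4 and 29.6 CPM in the delipidated libraries. Maternal oocyte transcripts also remained, with Btg4, a factor of maternal mRNA decay, at 1971, 901 and 1749 CPM in control and 1083, 1256 and 1970 CPM in delipidated libraries.

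No nucleolar gene passed the test between delipidated and control embryos, in either direction. A gene was called at a Benjamini-Hochberg adjusted p below 0.05 and a log2 fold change beyond 1 in edgeR's quasi-likelihood test, and 0 of the 36 genes were called, with 0% of all tested genes called. At an unadjusted p under 0.05 the count of the 36 genes was also 0 in both directions, against 1.15% of all tested genes higher and 1.74% lower in delipidated embryos. DESeq2 was run over 30850 genes without a prior filter on low counts, but with its default filtering before the p-values were adjusted. It also called 0 of the 36 genes. It had 0 of them at an unadjusted p under 0.05. The share of all its genes at that p is not given here, so nothing is read from this count. DESeq2 called 49 genes of that table, and edgeR without the filter called 30. Groups that did not overlap were found for 0 of the 36 genes, against 3.81% of all tested genes with every delipidated library above every control library and 5.05% with every one below. Without delipidated 3, Utp20, Nolc1, Rrn3, Nop16 and Nop56 (5 genes) were higher in both other delipidated libraries than in every control, against 9.46% of all genes, and without delipidated 1, Ddx18, Ubtf, Bysl, Gar1, Nop2 and Rrs1 (6 genes) were lower, against 10.1%. The median log2 fold change (delipidated over control) was −0.01 over the 36 genes and −0.00 over all tested genes, with 17 of the 36 above 0 and 19 below. The adjusted p was 1.00 for each of the 36 genes in edgeR, and the fold changes ranged from −0.62 for Wdr12 to 0.48 for Npm3.

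The 95% confidence interval of the log2 fold change held 0 for all 36 genes and lay between −1 and 1 for 31 of them, against 24.9% of all tested genes. The 5 exceptions were Nop10, Gar1, Npm3, Wdr12 and Rrs1, with the widest bounds at −1.47 for Wdr12 and 1.43 for Npm3. The standard error (SE) of a log2 fold change ranged from 0.17 to 0.45 over the 36 genes. Their median level was 208 CPM, against 10.3 CPM over all tested genes, so the 24.9% is not a share of genes at a like level.

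**Figure D1:**
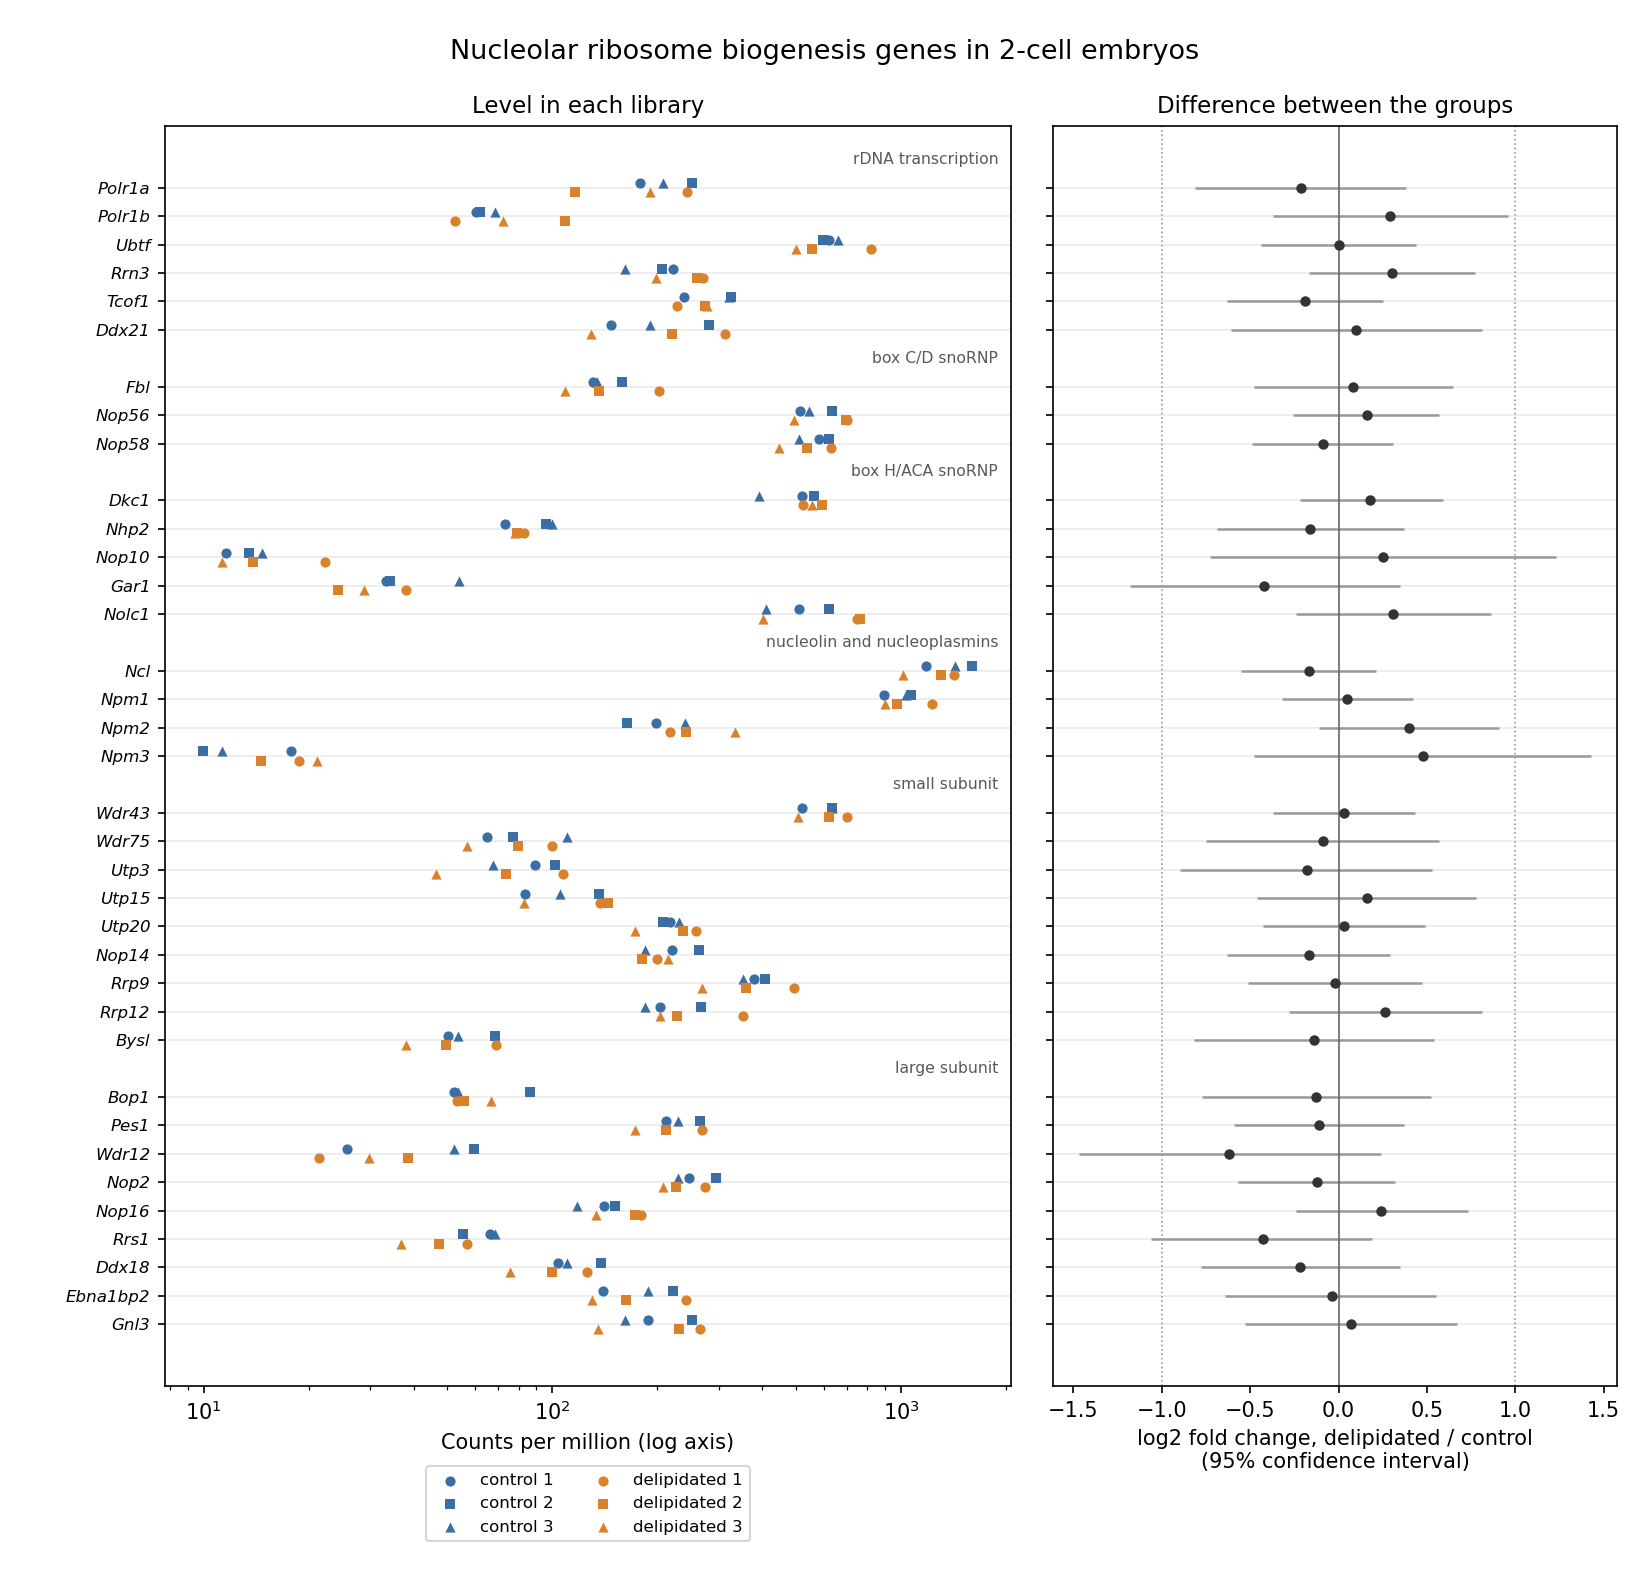
Level of each of the 36 genes in every library in CPM on a log axis (left; colours mark the groups and symbols the replicate) and its log2 fold change with the 95% confidence interval from edgeR (right; dotted lines at −1 and 1). The control and delipidated points overlap for all 36 genes, and all 36 intervals hold 0.

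Among the genes of rDNA transcription, the log2 fold changes lay between −0.21 and 0.30, with 3 of 6 above 0. Ubtf encodes the upstream binding factor that keeps active rDNA repeats open, and was counted at 621, 598 and 660 CPM in control and at 819, 557 and 499 CPM in delipidated libraries. The delipidated values lay on both sides of the controls, so that means of 626 ± 31.5 CPM (SD, n = 3) and 625 ± 170 CPM gave a log2 fold change of −0.00 (SE 0.20). Rrn3, the factor that makes RNA polymerase I competent for initiation, was at 222, 206 and 162 CPM in control and 270, 259 and 198 CPM in delipidated libraries. Delipidated 1 and 2 were above all controls, but delipidated 3 was within their range, and the log2 fold change was 0.30 (SE 0.22). Polr1b, the second largest subunit of RNA polymerase I, was at 60.3, 62 and 68.3 CPM in control and 52.5, 109 and 72.3 CPM in delipidated libraries. The log2 fold change was 0.29 (SE 0.30), and −0.03 without delipidated 2. The controls were close together, whereas delipidated 1 was the lowest and delipidated 2 the highest of the 6 libraries. Polr1a, the largest subunit of the same enzyme, had its lowest value in that library, delipidated 2, at 116 CPM, and its values in the other libraries lay between 178 and 252 CPM. Tcof1, which encodes the rDNA transcription cofactor treacle, and Ddx21, an RNA helicase of rDNA transcription and rRNA processing, had log2 fold changes of −0.19 and 0.10.

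The counts per exonic part also covered an alternatively spliced exon of Ubtf. This exon at chr11:102310926-102311036 (mm10, minus strand), of 111 bases, is left out in 5 of the 9 annotated coding transcripts that span it, and its presence distinguishes the long form of the factor, which is active in rDNA transcription, from the short form. It held 320, 523 and 402 counts per 100 bases in control and 686, 332 and 300 in delipidated libraries. The exon on its 5′ side, chr11:102311380-102311500, held 293, 474 and 421 counts per 100 bases in control and 645, 325 and 295 in delipidated libraries. The exon that can be left out was counted about as densely as its 5′ neighbour in every library of both groups. The exon on its 3′ side, chr11:102310443-102310576, was lower, at 193, 257 and 218 counts per 100 bases in control and 344, 263 and 161 in delipidated libraries.

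In the box C/D snoRNP group all 3 genes had their highest value in delipidated 1 and their lowest in delipidated 3. Fbl encodes fibrillarin, the methyltransferase of the particle, and was at 131, 158 and 134 CPM in control and 202, 136 and 109 CPM in delipidated libraries. The log2 fold change was 0.08 (SE 0.26), with the delipidated libraries on both sides of the controls. Nop56, a core scaffold protein, was at 514, 634 and 544 CPM in control and 698, 697 and 492 CPM in delipidated libraries, a log2 fold change of 0.16 (SE 0.19). Nop58, its paired scaffold protein, was at 583, 620 and 510 CPM in control and 630, 537 and 445 CPM in delipidated libraries, a log2 fold change of −0.09 (SE 0.18). For both scaffold genes the groups overlapped. Nop56 and Nop58 host small nucleolar RNAs in their introns, and parts shared with such RNAs that were not assigned to the host held 2.96% of the counts at Nop56 and 0.0252% at Nop58.

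For the box H/ACA snoRNP genes the log2 fold changes lay between −0.42 and 0.31, with 3 of 5 above 0. Nolc1, a phosphoprotein chaperone of snoRNPs, was at 510, 621 and 410 CPM in control and 746, 762 and 402 CPM in delipidated libraries. Delipidated 1 and 2 were above all controls and delipidated 3 below all of them, which gave a log2 fold change of 0.31 (SE 0.25). The log2 fold change of Nolc1 was 0.16 without delipidated 2, 0.17 without control 3, 0.18 without delipidated 1 and 0.47 without control 2. Without delipidated 3 it was 0.55, and Nolc1 was then the only one of the 36 genes with an unadjusted p under 0.05 in edgeR. The share of all tested genes at that p is not given here for this setting, so nothing is read from this count. Gar1, a core protein of the particle, was at 33.4, 34.3 and 54 CPM in control and 38.1, 24.2 and 28.9 CPM in delipidated libraries, a log2 fold change of −0.42 (SE 0.35) that was −0.16 without control 3, −0.28 without delipidated 2 and −0.15 with the most counted part. Control 3 was the highest, and delipidated 1 lay above the lower controls. Dkc1, the pseudouridine synthase dyskerin, and the small core proteins Nop10 and Nhp2 had log2 fold changes of 0.18, 0.25 and −0.16.

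Nucleolin and the nucleoplasmins are abundant histone and RNA binding chaperones. Ncl, which encodes nucleolin, was at 1181, 1601 and 1424 CPM in control and 1420, 1305 and 1013 CPM in delipidated libraries. Only delipidated 3 was below the controls, and the log2 fold change was −0.17 (SE 0.18). Npm1, the nucleophosmin of the granular nucleolus, was at 894, 1064 and 1036 CPM in control and 1226, 973 and 901 CPM in delipidated libraries, a log2 fold change of 0.05 (SE 0.17). Delipidated 1 was the highest, and the other delipidated libraries lay within the range of the controls.

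Npm2 is the oocyte nucleoplasmin, a maternal protein needed for the nucleolus precursor bodies. It was at 198, 164 and 240 CPM in control and 218, 241 and 334 CPM in delipidated libraries. Delipidated 3 was the highest and control 2 the lowest, and delipidated 2 was level with the highest control. The means were 201 ± 38.2 CPM and 265 ± 61.4 CPM (SD, n = 3), and the log2 fold change of 0.40 (SE 0.23) had a 95% confidence interval from −0.11 to 0.91. Without delipidated 3 it was 0.19, and with any other library left out it lay between 0.27 and 0.55. Npm3, a nucleolar relative that binds nucleophosmin, was at 17.8, 9.98 and 11.3 CPM in control and 18.7, 14.6 and 21.1 CPM in delipidated libraries, a log2 fold change of 0.48 (SE 0.44). Control 1 lay above delipidated 2, so the groups overlapped. The log2 fold change of Npm3 was 0.15 with the most counted part, 0.31 without parts shared with the other strand, 0.32 without control 2 and 0.78 without control 1. Of its counts 13% fell in parts shared with a gene on the other strand, and Npm3 and its annotated pseudogene may share reads, so its values are uncertain.

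The small subunit genes had a median log2 fold change of −0.02, between −0.18 and 0.26. Wdr43, a subunit of the early small subunit processome, was at 520, 634 and 635 CPM in control and 700, 621 and 505 CPM in delipidated libraries, a log2 fold change of 0.03 (SE 0.18). Delipidated 1 was above and delipidated 3 below all controls. Rrp12, a factor of the export of pre-ribosomes, was at 203, 266 and 184 CPM in control and 352, 227 and 204 CPM in delipidated libraries, a log2 fold change of 0.26 (SE 0.25). The value of delipidated 1 stood above the others, which overlapped. Without delipidated 1 the log2 fold change of Rrp12 was −0.01, and with the most counted part it was 0.12. Nop14, a processome protein, was at 220, 264 and 184 CPM in control and 200, 181 and 214 CPM in delipidated libraries, a log2 fold change of −0.17 (SE 0.21). Its delipidated values lay near the lower controls, and 17.4% of its counts fell in parts shared with a gene on the other strand. Wdr75, Utp3, Utp15, Utp20 and Rrp9, further components of the processome, and Bysl, which acts later in small subunit maturation, had log2 fold changes between −0.18 and 0.16, and 21% of the counts of Bysl were in parts shared with a gene on the other strand.

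For the large subunit genes 7 of 9 log2 fold changes were below 0, with a median of −0.12. Wdr12 forms with Bop1 and Pes1 the complex that processes the precursor of the large subunit rRNAs, and was at 25.8, 59.5 and 52.1 CPM in control and 21.4, 38.5 and 29.8 CPM in delipidated libraries. Control 1 was as low as the delipidated libraries, and the log2 fold change was −0.62 (SE 0.39). It was −0.38 without control 2, −0.42 without delipidated 1, −0.84 without delipidated 2 and −0.23 with the most counted exonic part in place of the sum. Without control 1 it was −0.89, and Wdr12 was then the only one of the 36 genes with an unadjusted p under 0.05 in edgeR. For this setting too, the share of all tested genes at that p is not given here, and nothing is read from the count. Its partners Bop1 and Pes1 had log2 fold changes of −0.13 and −0.11, and 16.5% of the counts of Pes1 were in parts shared with a gene on the other strand. Rrs1, a factor that brings the 5S RNP to the large subunit precursor, was at 66.1, 55.5 and 68.6 CPM in control and 56.8, 47.2 and 36.9 CPM in delipidated libraries. Delipidated 2 and 3 were below all controls and delipidated 1 was just above control 2, with a log2 fold change of −0.43 (SE 0.29). Gnl3, the GTP-binding protein nucleostemin, was at 188, 252 and 161 CPM in control and 265, 231 and 135 CPM in delipidated libraries, a log2 fold change of 0.07 (SE 0.27). Its highest and its lowest value were both in delipidated libraries. The rRNA methyltransferase Nop2, the helicase Ddx18 and the assembly factors Nop16 and Ebna1bp2 had log2 fold changes of −0.12, −0.22, 0.24 and −0.04.

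Levels of different genes were compared per length, as CPM per kb of exonic sequence. On this scale Npm1 was the highest of the 36 genes with a mean level of 381 CPM per kb over the 6 libraries, followed by Npm2 at 233, Wdr43 at 175, Nolc1 and Nop56 both at 158 and Ncl at 133 CPM per kb. Wdr12 was the lowest at 3.17 CPM per kb, below Polr1b at 12.2 CPM per kb. The level of Npm1 was 374 CPM per kb in control and 388 in delipidated libraries, and that of Npm2 was 201 and 265 CPM per kb. The order is approximate, since a read that spans several parts is counted in each, and annotated sequence without counts lowers a level. At Ncl a terminal part of 5776 bases held 134, 354 and 235 counts in control and 368, 201 and 78 counts in delipidated libraries, while a part of 355 bases held 25.5% of the counts of the gene.

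The 36 genes varied less between libraries than most genes. The coefficient of variation over the 6 libraries ranged from 12.2% for Npm1 to 40.1% for Wdr12 with a median of 21.6%, and all 36 values were under the median of 44.2% over all tested genes, whose median level was 10.3 CPM against 208 CPM for the 36 genes. This variation followed the library more than the group. Summed over the 36 genes, the level was 9131, 10992 and 9606 CPM in control and 11651, 10129 and 8331 CPM in delipidated libraries. Delipidated libraries were both the highest and the lowest, and the means of 9909 ± 967 CPM and 10037 ± 1662 CPM (SD, n = 3) differed by less than the spread between pools.

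Single genes followed the same order, which was noticed after their values were seen. Within the control group, control 2 was highest for 24 of the 36 genes (66.7%) and control 1 lowest for 20 (55.6%), against 35.2% and 33.2% of all tested genes. Within the delipidated group, delipidated 1 was highest for 26 of the 36 genes (72.2%) and delipidated 3 lowest for 26, against 32.5% and 33.5% of all tested genes. Npm2 and Npm3 were the 2 genes with their highest value of all 6 libraries in delipidated 3.

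Lists of other genes were set beside these sums. The 136 tested genes of a list of other ribosome biogenesis factors summed to 16276, 20475 and 17559 CPM in control and 20617, 17418 and 14258 CPM in delipidated libraries, highest in delipidated 1 and control 2 and lowest in delipidated 3 and control 1, as for the 36 genes. The 78 cytosolic ribosomal protein genes summed to 7136, 9450 and 8996 CPM in control and 9354, 7990 and 6074 CPM in delipidated libraries, with the same pair of libraries highest and the same pair lowest. The maternal oocyte genes were in another order, with sums of 5051, 3177 and 4592 CPM in control and 3657, 3826 and 5380 CPM in delipidated libraries. The 2-cell activation genes summed to 1269, 745 and 1111 CPM in control and 906, 1107 and 1420 CPM in delipidated libraries. Both sums were highest in delipidated 3 and control 1 and lowest in control 2 and delipidated 1, the libraries in which the sum of the nucleolar genes was lowest and highest. Btg4 made up much of the maternal sum, which without it was 3080, 2275 and 2843 CPM in control and 2573, 2571 and 3410 CPM in delipidated libraries, with delipidated 1 and 2 level. Gene by gene, delipidated 1 was lowest of its group for 11 of 20 maternal and 16 of 24 activation genes, against 40% of all tested genes. Delipidated 3 was highest for 9 of 20, as was delipidated 2, and for 13 of 24, against 36.1% of all tested genes. What sets these libraries apart was not tested.

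**Figure D2:**
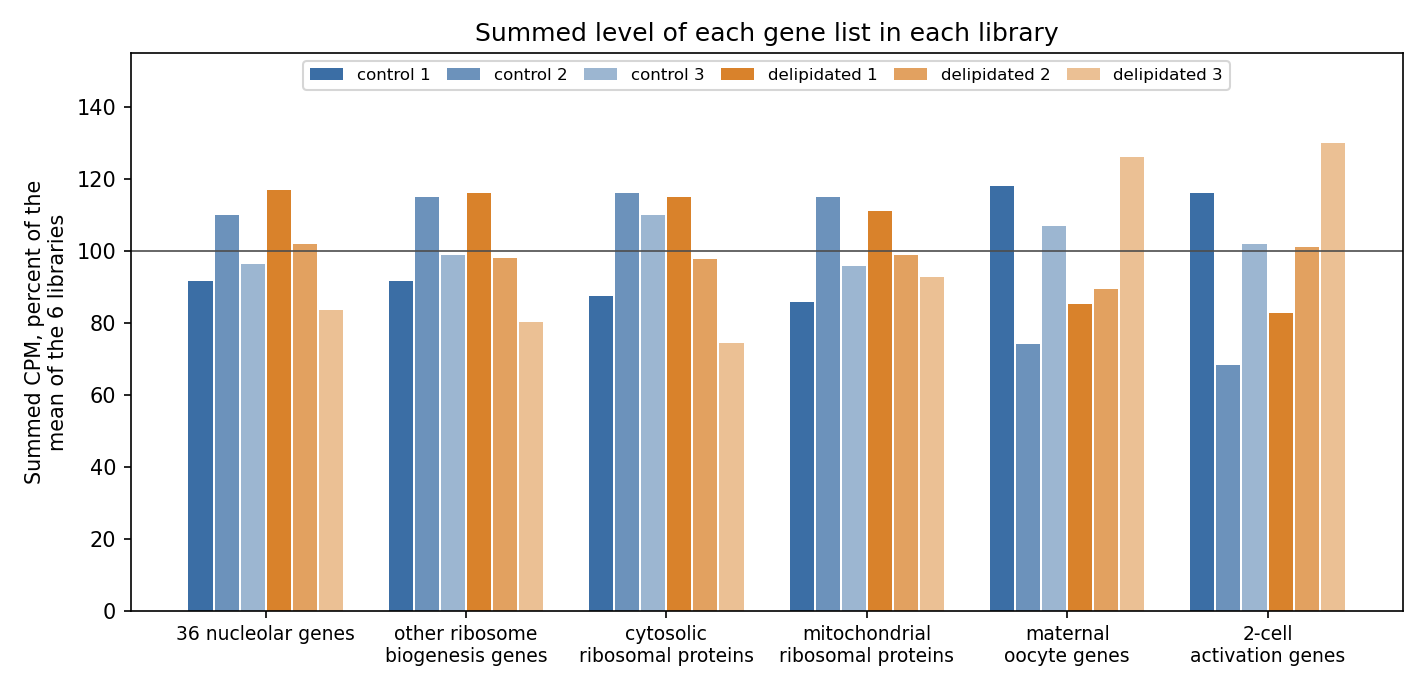
Summed CPM of each gene list in each library, as a percent of the mean of the 6 libraries (line at 100), with colours for the groups and shades for the replicate. The 36 nucleolar genes were at 117% in delipidated 1 and 83.5% in delipidated 3, whereas the maternal oocyte genes were at 85.4% and 126% in these libraries.

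Of the other ribosome biogenesis genes, 0 of 136 were called by edgeR, 1 was higher and 2 were lower at an unadjusted p under 0.05, against 1.15% and 1.74% of all tested genes. In every delipidated library 2 were higher and 8 lower, against 3.81% and 5.05% of all tested genes. Polr1h, a small subunit of RNA polymerase I, was at 48.9, 60.4 and 52.3 CPM in control and 20.3, 30.1 and 16.2 CPM in delipidated libraries. All delipidated values were below all controls, with a log2 fold change of −1.28 (SE 0.34) and an edgeR adjusted p of 1.00. Exosc9, a subunit of the RNA exosome that trims rRNA precursors, was at 67.9, 109 and 81.3 CPM in control and 42.1, 34.5 and 64 CPM in delipidated libraries, a log2 fold change of −0.88 (SE 0.32) with no overlap between the groups. Shq1, an assembly chaperone of dyskerin, was at 1.1, 2.84 and 1.44 CPM in control and 14.5, 6.76 and 6.07 CPM in delipidated libraries. It was higher in every delipidated library at a low level, with a log2 fold change of 2.33 (SE 0.74), and its edgeR adjusted p was 1.00. Ruvbl2, an ATPase of snoRNP assembly, was at 23.6, 40.9 and 36.3 CPM in control and 74.5, 51 and 39.7 CPM in delipidated libraries, where delipidated 3 overlapped the controls and the log2 fold change was 0.71 (SE 0.35). The median log2 fold change was −0.03 over these 136 genes, −0.16 over the cytosolic ribosomal proteins and −0.00 over 72 mitochondrial ribosomal proteins. Of the cytosolic ribosomal protein genes 54 of 78 were below 0, against 8016 of all 16020 tested genes. In either ribosomal protein list 0 genes were called by edgeR. At an unadjusted p under 0.05, 1 cytosolic ribosomal protein gene was higher and 3 were lower, and 1 mitochondrial one was higher and 0 lower, against 1.15% and 1.74% of all tested genes. In every delipidated library 0 of 78 cytosolic ribosomal protein genes were higher and 7 lower, and 3 of 72 mitochondrial ones were higher and 1 lower, against 3.81% and 5.05% of all tested genes.

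Promoter windows from 250 bases before to 50 bases after the start were taken from RefSeq (GRCm38.p6) and matched 29 of the 36 genes in the table used here, all but Tcof1, Fbl, Npm1, Npm2, Rrp12, Bop1 and Rrs1. The E-box CACGTG, which reads the same on both strands and is the motif bound by MYC, a known activator of ribosome biogenesis genes, was in the windows of 5 of 29 genes (17.2%). It was in 20% of 115 other ribosome biogenesis genes, 11.2% of 10944 tested genes and 8.09% of all 27025 genes with a window, and a pair of E-boxes 5 bases apart was in 0 of them. The 5 genes were Nop2, Pes1, Rrn3, Utp20 and Wdr43, and their median log2 fold change was 0.03, against −0.03 for the 24 genes with a window and no E-box. The windows of Rrn3, which has 2 E-boxes, and of Wdr43, which had the highest level per length of the 5, are shown 5′ to 3′ with the E-box in capitals, at chr16:13780449-13780748 (plus strand) and chr17:71615965-71616264 (plus strand). The E-boxes of Rrn3 begin at −215 and −48 from the start, and that of Wdr43 begins at 17.
Rrn3: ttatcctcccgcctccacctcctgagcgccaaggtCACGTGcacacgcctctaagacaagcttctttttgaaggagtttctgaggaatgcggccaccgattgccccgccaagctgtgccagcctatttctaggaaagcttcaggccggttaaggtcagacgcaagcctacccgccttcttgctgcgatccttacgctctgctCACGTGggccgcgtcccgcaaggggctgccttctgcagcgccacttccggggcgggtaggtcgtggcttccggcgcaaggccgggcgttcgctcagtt
Wdr43: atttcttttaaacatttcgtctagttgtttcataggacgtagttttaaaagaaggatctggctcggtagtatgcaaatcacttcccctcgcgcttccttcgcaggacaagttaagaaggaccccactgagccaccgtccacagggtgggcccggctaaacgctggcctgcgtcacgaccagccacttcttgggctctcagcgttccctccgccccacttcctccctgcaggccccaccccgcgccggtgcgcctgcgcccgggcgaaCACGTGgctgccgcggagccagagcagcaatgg

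Markers of other cells that could adhere to embryos were summed in the same way, although cumulus cells had been removed with hyaluronidase and the embryos washed. Stromal markers summed to 52.1, 62.2 and 110 CPM in control and 67.4, 53.9 and 24.9 CPM in delipidated libraries, with Fn1 the most abundant at 14.4, 27.6 and 28.4 CPM in control and 64.3, 45.3 and 17 CPM in delipidated libraries. Without Fn1, a sum made after the values were seen, the list was at 37.6, 34.6 and 82.1 CPM in control and 3.11, 8.6 and 7.91 CPM in delipidated libraries, so that all delipidated libraries were below all controls. Of the 16 stromal genes, 7 had no count in any delipidated library, among them Vim and Col1a1, and 1 had no count in any control library. Over all 16020 tested genes, 38 had no count in any delipidated library and 2 had none in any control library. The 16 stromal genes include genes under the filter on low counts, so the shares are not alike and nothing is read from them. Some stromal genes passed that filter through the control libraries alone, so no count of tested genes is given for this list.

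Leukocyte markers summed to 31.8, 30.8 and 19.5 CPM in control and 18.5, 21.1 and 27 CPM in delipidated libraries, with S100a8 at 0 in all libraries. Their most abundant gene, Lcp1, was at 3.88, 7.01 and 2.66 CPM in control and 8.49, 9.83 and 10.4 CPM in delipidated libraries, higher in every delipidated library. Without Lcp1 the list summed to 27.9, 23.8 and 16.8 CPM in control and 9.97, 11.2 and 16.6 CPM in delipidated libraries. This sum was made after the values were seen. It was lower in every delipidated library, but control 3 and delipidated 3 were nearly level. Its genes did not all go this way, and Cd52 had its highest value in delipidated 1. Cumulus and granulosa markers summed to 207, 260 and 344 CPM in control and 257, 243 and 165 CPM in delipidated libraries, mostly from Nr5a2, which embryos also express, with Ptx3 and Foxl2 at 0 in all libraries. The steroidogenic genes Cyp11a1 and Hsd3b1, noticed after their values were seen, were at 49.6 and 46.1 CPM in control 3 and under 1 CPM in every other library. Oviduct epithelium markers summed to 229, 395 and 271 CPM in control and 247, 301 and 196 CPM in delipidated libraries, with Sftpd and Wfdc2 at 0 in all libraries. Most of this sum came from Epcam and Cdh1, which embryos also express, and Cdh1 was at 125, 140 and 133 CPM in control and 70.3, 88.6 and 73.8 CPM in delipidated libraries, lower in every delipidated library. The stromal, cumulus and granulosa, and oviduct sums were lowest in delipidated 3, as was the sum of the 36 genes, whereas the leukocyte sum was lowest in delipidated 1, where the sum of the 36 genes was highest. Without Nr5a2 the cumulus and granulosa sum was 24.5, 30.5 and 131 CPM in control and 12.6, 43.1 and 18.8 CPM in delipidated libraries. This sum and the stromal sum without Fn1 were lowest in delipidated 1. Without Epcam the oviduct sum was still lowest in delipidated 3, at 88.2 CPM. The part of such cells in the values of the 36 genes was not tested.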

How the data were processed

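RNA of 3 control and 3 delipidated pools of mouse 2-cell embryos was sequenced after rRNA depletion with a strand-specific kit. According to the submitters' processing notes and the study's methods, reads were converted with bcl2fastq 2.20, trimmed with Trimmomatic 0.36, aligned with STAR 2.5.2b and counted with featureCounts. The deposited values are raw counts per exonic part, a piece of the exons of a gene, in mm10 coordinates, which the methods do not describe. Each library lists 425461 parts.

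Parts were added up per gene. Of 33309 parts under joined identifiers of overlapping genes, 27968 overlap a single member gene in the GENCODE M21 annotation and were assigned to it; the rest were left out, which took from 2.49% to 2.57% of each library. A read that spans several parts is counted in each, so sums exceed the reads and their apparent precision is too high. Whether the counting used strand is not given in the sources used here.

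Delipidated and control libraries were tested with the quasi-likelihood test of edgeR 4.0.16 (R 4.3.3), with TMM normalization, filterByExpr (minimum count 10, minimum total count 15) and Benjamini-Hochberg adjustment over all genes tested. The common biological coefficient of variation was 0.663. DESeq2 1.42.0, other scaling, filter, gene values and left-out libraries were alternatives. CPM values use TMM library sizes. Both tools were tested on simulated data. Tables were handled with Python 3.11.15 and pandas 2.3.3.

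Every member is named by role group. Values in every library are given for Fbl, Ncl, Npm1 and Npm2 and, in each role group, for the gene with the highest CPM per kb and the 2 with the smallest p. Of the other ribosome biogenesis genes, the 2 with the smallest p in each direction are named. Members and lists were chosen with earlier results of these data known. The Ubtf exon, the Polr1a values, the order of the libraries and the printed promoters were chosen after the values were seen.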

Additional observations from a re-analysis of the deposited data

How the results depend on the processing

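Over the alternatives, 0 of the 36 genes were called in every setting run, with DESeq2, DESeq2 size factors in edgeR, no filter on low counts, the most counted part of each gene, parts of single genes only (33 of the 36 genes), no parts on the opposite strand, the replicate block, no fold change threshold or any library left out. Over the whole table, DESeq2 without a prior filter called 49 genes (9 higher, 40 lower) and edgeR with no filter 30 (5 higher, 25 lower). In edgeR with the filter, 0 were called with any library left out. The cause of these differences was not tested. The median log2 fold change of the 36 genes ranged from −0.18 to 0.14 with a library left out and the log2 ratio of their sums from −0.10 to 0.13. With the most counted part, Nop14 and Rrs1 (2 genes) were lower in every delipidated library, against 4.76% of all genes. With a library left out, between 1 and 5 genes were higher in every delipidated library and between 0 and 6 lower, the most without delipidated 3 (5 higher, against 9.46% of all genes) and without delipidated 1 (6 lower, against 10.1%). At an unadjusted p under 0.05 between 0 and 1 were higher and between 0 and 1 lower. No share of all tested genes is given beside these counts, and nothing is read from them. Of the fold changes of named genes, 18 values changed sign; the cause was not tested. Ubtf was at 0.01 with DESeq2 and with its size factors and at 0.14 with the most counted part, and with a library left out between −0.24 and 0.13. Other ranges with a library left out that crossed 0 were −0.03 to 0.51 for Polr1b, −0.20 to 0.26 for Fbl, −0.22 to 0.03 for Nop58, −0.09 to 0.14 for Npm1, −0.08 to 0.14 for Wdr43, −0.01 to 0.43 for Rrp12 and −0.13 to 0.30 for Gnl3. Ranges that kept their sign were −0.59 to −0.29 for Rrs1, 0.17 to 0.42 for Rrn3, 0.08 to 0.30 for Nop56, −0.27 to −0.04 for Ncl and −0.29 to −0.03 for Nop14, and with the most counted part Ncl was at −0.31 and Nop14 at −0.43. Replicate numbers did not pair the pools: deviations of same-numbered libraries correlated at −0.112, 0.092 and 0.057, and with the replicate number as a block the median log2 fold change was −0.05, the log2 ratio of the sums 0.02 and the calls 0. Nop10, Npm3 and Wdr12 had the widest standard errors among the 36 genes, at 0.45, 0.44 and 0.39.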
